A study of Homo sapiens with 26 samples.

Results

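The genes described here are 40 listed transcripts of chromatin silencing systems other than the DNA methyltransferases: Polycomb repressive complexes, histone H3 lysine 9 methyltransferases and their HP1 readers, histone deacetylases and the NuRD complex, readers of methylated CpG, and chromatin remodelers and HUSH-associated factors. They were chosen by symbol, and each was read from the highest-mean array row that names exactly 1 gene. Of the 40, 37 were measured in this way, among 18417 genes in all. RNF2, CBX8 and BMI1 had no such row and were not analysed here. RNA of NCCIT cells, an established human embryonal carcinoma line, was measured on 26 arrays (Affymetrix Human Gene 1.0 ST), 2 for each of 13 groups. All 13 were cultured with serum in McCoy's medium and transfected with siRNA by the PepMute reagent. The siRNA is the only difference between the groups that the labels give. The control siRNA groups are siNTC-1 and siNTC-2. Single depletions targeted DNMT1 (siDNMT1), DNMT3A (siDNMT3A), DNMT3B (siDNMT3B) or DNMT3L (siDNMT3L). Combinations with DNMT1 are siD1+3A+3B, siD1+3B and siD1+3A, and combinations without it are 3A+3B+3L, 3B+3L, 3A+3L and 3A+3B, where 3A, 3B and 3L stand for DNMT3A, DNMT3B and DNMT3L. The time between transfection and harvest is not given in the labels.

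DNA methylation is one of several ways by which mammalian cells keep genes off. Polycomb complexes mark histones H3 and H2A, SUV39H, EHMT and SETDB1 enzymes methylate H3 lysine 9, which HP1 proteins bind, and MBD and Kaiso-family proteins read methylated CpG directly and bring in deacetylases. DNMT1 copies methylation after replication, DNMT3A and DNMT3B add it, and DNMT3L has no catalytic activity of its own but assists both. The question asked of the 37 transcripts was whether they moved when one or several DNA methyltransferases were depleted, as they might if other silencing systems were adjusted at the level of their own mRNA.

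All values are log2 expression as deposited, and a difference is the mean of the first group minus the mean of the second on that log2 scale. A gene was called when its adjusted p was under 0.05 in a limma fit of the 13 group means over all 26 arrays, adjusted by Benjamini-Hochberg over the 18417 genes. Nothing in the labels says that the 2 arrays of a group stand for separate cultures. The p-values therefore rest on a spread between arrays that may be technical. The siRNA targets were lowered to different depths. DNMT1 was at 37.4% of control in siDNMT1 and at 49.9 to 59.5% in the 3 combinations. DNMT3A was at 67.0 to 78.5% and DNMT3L at 68.3 to 79.7%. DNMT3B was at 50.3% in siDNMT3B and at 72.6 to 87.1% in the combinations, except 3A+3B+3L, where it was at 99.4% and was not called. Some DNMT genes also changed where they were not targeted. DNMT3L was called lower in siDNMT1, at 75.6% of control (adjusted p = 0.0203), DNMT3B higher in siD1+3A (115%) and 3A+3L (121%), and DNMT1 higher in 3A+3B+3L (113%). The embryonal carcinoma markers LIN28A, SALL4, L1TD1, DPPA4 and SOX2 lay between 10.67 and 12.45 in every array, and 23 of the 24 measured markers of other lineages lay between 3.87 and 6.42. The neuronal marker MAP2 was the exception, at 6.54 to 9.05.

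The 2 control groups differed widely, and this bears on every depletion. The first principal component, with 49.5% of the variance, placed siNTC-1, siDNMT1, siDNMT3B and siDNMT3L at -26.6 to -23.3, and siNTC-2 with the other 8 depletions at 3.4 to 20.2. Each depletion was therefore set against the control on its own side. No label ties a depletion to either control, and this choice uses the same values that are compared, so the mean of both controls is given beside the results. Between siNTC-2 and siNTC-1 themselves, 18 of the 37 members were called, 8 higher and 10 lower in siNTC-2, beside 44.7% of all genes (24.2% higher, 20.5% lower). DAXX, a histone H3.3 chaperone, was at 6.99 and 6.98 in siNTC-1 and at 7.57 and 7.68 in siNTC-2, a difference of 0.64 ± 0.07 (SE, n = 2 against 2, adjusted p = 1.48e-06). SUV39H2, an H3 lysine 9 methyltransferase, was at 9.65 and 9.66 in siNTC-1 and at 9.02 and 9.01 in siNTC-2, a difference of -0.64 ± 0.07 (adjusted p = 5.56e-07). These were the only members that differed by at least 1.5-fold between the controls, beside 8.87% of all genes, and in both the arrays of the groups lay far apart. Other members higher in siNTC-2 were ZBTB4 (0.58), JARID2 (0.46), MTA1 (0.45) and CBX5 (0.43), and others lower were CBX3 (-0.52), CBX1 (-0.41), ZBTB33 (-0.35) and SIRT1 (-0.29). PHC1, HDAC1, HDAC2, MBD4, EZH2, SUZ12 and SUV39H1 were not called between the controls. A list of 15 stress-response genes moved with the same split: 13 were higher and 1 lower in siNTC-2, with a median difference of 1.64. Of 20 replication genes, 16 were lower and 3 higher, with a median of -0.43. The part of these lists in the members' differences was not tested.

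Across the 11 depletions the members changed little in size and in both directions. In a culture measured in bulk, fewer cells of a type and less RNA per cell cannot be told apart. There were 407 tests of members, of which 98 were called, 57 higher and 41 lower. None reached 1.5-fold, and the largest difference was 0.58 for JARID2 in siDNMT3B. Of all genes, those called with at least 1.5-fold were 1.65% in siDNMT1, 2.29% in siDNMT3B, 1.35% in siDNMT3L, 0.825% in siDNMT3A, 2.10% in siD1+3A, 2.64% in siD1+3B, 1.42% in siD1+3A+3B, 0.548% in 3A+3B, 2.09% in 3A+3L, 0.342% in 3B+3L and 2.30% in 3A+3B+3L. The SE of a difference was 0.04 to 0.11, and the smallest difference called was 0.13 in absolute value. Called members numbered 11 in siDNMT1 (4 higher, 7 lower), beside 19.8% of all genes (9.26% higher, 10.6% lower). They numbered 4 in siDNMT3B (3 higher, 1 lower), beside 24.2% (11.8 and 12.4%), and 10 in siDNMT3L (4 higher, 6 lower), beside 19.2% (9.32 and 9.86%). With DNMT3A siRNA alone there were 8 in siDNMT3A (5 higher, 3 lower), beside 15.8% (8.44 and 7.36%). In the combinations with DNMT1 siRNA there were 10 in siD1+3A (8 higher, 2 lower), beside 22.8% (12.0 and 10.8%), then 13 in siD1+3B (7 higher, 6 lower), beside 25.0% (11.7 and 13.3%), and 10 in siD1+3A+3B (6 higher, 4 lower), beside 18.6% (7.74 and 10.8%). In those without it there were 4 in 3A+3B (1 higher, 3 lower), beside 12.6% (6.04 and 6.55%), then 10 in 3A+3L (7 higher, 3 lower), beside 22.4% (10.6 and 11.8%), then 5 in 3B+3L (3 higher, 2 lower), beside 10.1% (5.61 and 4.49%), and 13 in 3A+3B+3L (9 higher, 4 lower), beside 23.3% (10.5 and 12.8%). As shares of the 37 members these counts run from 10.8 to 35.1%, against 10.1 to 25.0% of all genes. In siDNMT3B and 3A+3B the members' share was below that of all genes, and in the other 9 depletions it was above it. The members' median difference was -0.034 to 0.063 in the 11 depletions, and that of all genes -0.029 to 0.002. The stress list moved as well: 12 of its 15 genes were lower in siD1+3B, siD1+3A, siD1+3A+3B, 3A+3L and 3A+3B+3L, with medians of -1.24 to -0.69, and 0 to 8 in the other 6. In siDNMT1, 16 of the 20 replication genes were lower (median -0.21). The part of these lists in the members' changes was not tested. The 11 comparisons share their controls: 3 use the siNTC-1 arrays and 8 the siNTC-2 arrays.

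**Figure D1:**
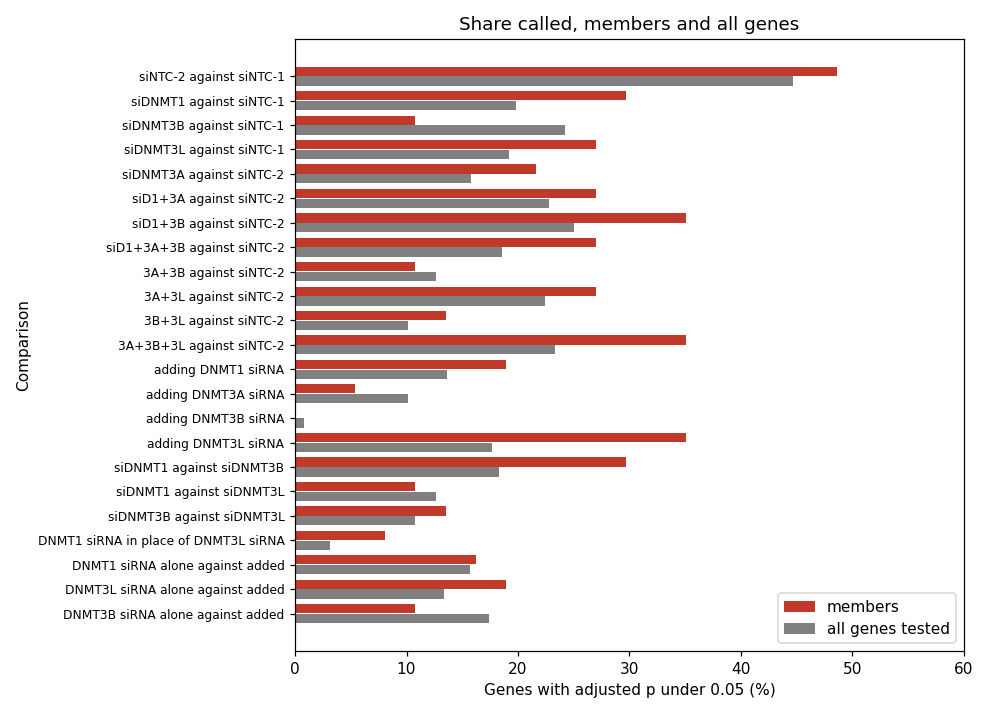
Bars give the percentage of the 37 members (red) and of all 18417 genes (grey) with an adjusted p under 0.05 in each comparison on the vertical axis. The members' bar reaches 48.6% between the controls and at most 35.1% in a depletion, and it is at 0 for adding DNMT3B siRNA.

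Of the 98 calls, 34 held when each of the 4 arrays compared was left out in turn. Of these, 23 were also called, in the same direction, against the mean of both controls. The p-values against both controls, which gave 149 calls, rest on the spread between duplicates and leave out the difference between the control groups. JARID2 and HELLS were lower in siNTC-1, so for them the mean of both controls can only enlarge a rise from siNTC-2. The same holds for a fall of EZH1 or a rise of ZBTB33 from siNTC-1, and for a fall of CBX1 from siNTC-2. These 23 calls fall on 11 members: JARID2, HELLS, PHC1, EZH2, SUV39H1, SIRT1, MBD4, HDAC1, HDAC2, PHF19 and ZBTB33. With only the groups compared in the fit 14 of the 23 were kept. Those lost were PHC1 in siDNMT1 and siDNMT3L, MBD4 in siDNMT1, HDAC2 in siDNMT3B, SIRT1 in siDNMT3B and siDNMT3L, JARID2 and PHF19 in siDNMT3L and EZH2 in siDNMT3A. A further 16 members were called in at least 1 depletion and 10 in none. The 10 were EED, CBX2, CBX7, SETDB1, EHMT2, MBD1, MBD3, ZBTB4, MTA1 and MPHOSPH8, with differences between -0.21 (EHMT2) and 0.29 (MBD3). This holds against the control on the same side. With the mean of both controls some were called. Examples are MTA1 in siDNMT3L (-0.38) and siDNMT3A (0.34), MBD3 in siD1+3A (0.40) and ZBTB4 in siDNMT3A (0.36). Others are EED in siDNMT3L (0.26), EHMT2 in siDNMT3B (-0.29) and CBX2 in siDNMT1 (-0.15). Of these, MTA1, ZBTB4 and EED were also called between the controls.

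**Figure D2:**
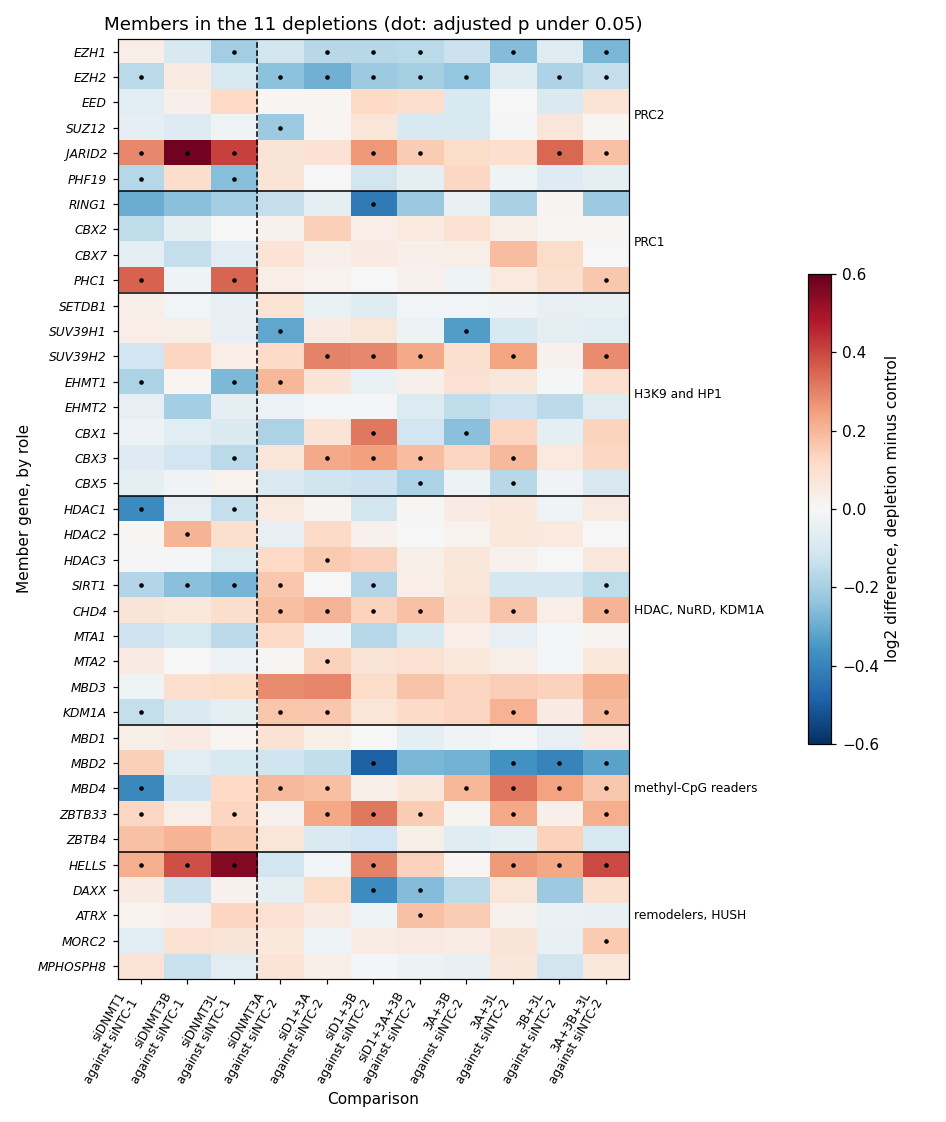
Each cell is the log2 difference of 1 member (rows, by role) in 1 depletion against its control (columns), red for higher and blue for lower, with a dot where the adjusted p was under 0.05; the dashed line parts the 3 depletions set against siNTC-1 from the 8 set against siNTC-2. Rises of JARID2, HELLS and PHC1 stand out on the left, and EZH2 is blue in 10 of 11 columns.

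The promoters of these genes are mostly rich in CpG. RefSeq promoter windows (GRCh38.p14) were matched by symbol for 34 of the 37 members, with 43 windows in all. In the 250 bases before the transcription start the members' windows held a median of 24 CpG (quartiles 19 and 32.5), and the 35114 windows of all genes held 11 (quartiles 3 and 23). The 5 windows printed here belong to the members with the largest calls that held in single depletions, JARID2 and HELLS, and to the members that moved most in siDNMT1, PHC1, HDAC1 and MBD4. CpG dinucleotides are in capitals, and each sequence is written 5′ to 3′ on the gene's strand. The JARID2 window (chr6:15245819-15246068, plus strand, the first of 2 listed) holds 22 CpG, and that of HELLS (chr10:94545538-94545787, plus strand) holds 18. The PHC1 window (chr12:8913593-8913842, plus strand, the first of 2 listed) holds 10, and the other PHC1 window, not printed, holds 23. The HDAC1 window (chr1:32291833-32292082, plus strand) holds 21, and the MBD4 window (chr3:129439949-129440198, minus strand) holds 26.
JARID2: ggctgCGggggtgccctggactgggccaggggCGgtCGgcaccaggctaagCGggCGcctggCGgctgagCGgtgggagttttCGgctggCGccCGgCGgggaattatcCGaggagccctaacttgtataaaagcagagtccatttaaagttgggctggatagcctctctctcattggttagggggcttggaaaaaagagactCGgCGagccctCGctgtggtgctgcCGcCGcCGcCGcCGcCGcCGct
HELLS: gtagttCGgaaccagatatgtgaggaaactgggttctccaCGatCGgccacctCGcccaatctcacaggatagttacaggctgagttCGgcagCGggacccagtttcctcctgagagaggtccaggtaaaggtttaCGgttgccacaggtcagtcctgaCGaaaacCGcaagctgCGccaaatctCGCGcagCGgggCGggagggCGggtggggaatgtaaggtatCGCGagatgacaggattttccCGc
PHC1: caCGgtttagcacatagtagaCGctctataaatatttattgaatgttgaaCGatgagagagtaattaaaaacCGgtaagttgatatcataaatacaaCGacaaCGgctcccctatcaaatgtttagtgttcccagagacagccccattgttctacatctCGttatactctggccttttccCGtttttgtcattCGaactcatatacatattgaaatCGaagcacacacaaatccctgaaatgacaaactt
HDAC1: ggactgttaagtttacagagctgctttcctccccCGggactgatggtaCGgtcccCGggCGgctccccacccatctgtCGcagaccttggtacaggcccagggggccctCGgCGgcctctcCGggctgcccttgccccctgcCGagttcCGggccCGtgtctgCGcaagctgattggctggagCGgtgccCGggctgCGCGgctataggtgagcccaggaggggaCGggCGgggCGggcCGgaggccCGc
MBD4: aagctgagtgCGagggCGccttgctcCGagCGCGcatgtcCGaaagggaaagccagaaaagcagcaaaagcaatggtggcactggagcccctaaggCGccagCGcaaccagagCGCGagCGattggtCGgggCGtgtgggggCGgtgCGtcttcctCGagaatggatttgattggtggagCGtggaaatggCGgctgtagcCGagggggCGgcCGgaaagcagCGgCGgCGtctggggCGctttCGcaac

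Fixed motifs were searched on both strands of the 250 bases. TTTCCCGC, a form of the E2F site, is in the windows of HELLS, PHF19, SUZ12 and ZBTB4 and in 1.39% of all windows, and TTTGGCGC, another form, is in that of HELLS and in 0.55% of all. The CRE letters TGACGTCA are in the window of SUV39H2, in the JARID2 window that is not printed and in 1.65% of all. That JARID2 window (chr6:15248605-15248854) overlaps the gene JARID2-AS1. The Kaiso letters TCCTGCNA are in no member's window and in 3.74% of all windows. Methylation was not among the measurements analysed here.

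Among the PRC2 genes, JARID2 was the member that rose most and EZH2 the one that fell most often. JARID2, an accessory subunit that helps bring PRC2 to its targets, was at 11.35 and 11.45 in siNTC-1, the lowest of the 26 arrays. It was at 11.98 in both arrays of siDNMT3B, at 11.85 and 11.77 in siDNMT3L and at 11.67 and 11.70 in siDNMT1. The differences were 0.58 ± 0.05 (adjusted p = 9.76e-08), 0.41 ± 0.05 (adjusted p = 8.66e-06) and 0.29 ± 0.05 (adjusted p = 0.000322), so no array of these groups overlapped siNTC-1. In siNTC-2, however, JARID2 was at 11.82 and 11.90, and of the 3 only siDNMT3B lay above both of these arrays. Against the mean of both controls the differences were 0.34 in siDNMT3B (adjusted p = 3.31e-06), 0.18 in siDNMT3L (adjusted p = 0.00231) and 0.06 in siDNMT1 (adjusted p = 0.356), so that the call in siDNMT1 was lost. On the siNTC-2 side JARID2 was at 12.22 and 12.19 in 3B+3L, the highest of all arrays, and at 12.10 and 12.14 in siD1+3B. These were 0.34 ± 0.05 (adjusted p = 0.000175) and 0.26 ± 0.05 (adjusted p = 0.000485) above siNTC-2, with no overlap. JARID2 was also called in siD1+3A+3B (0.15) and 3A+3B+3L (0.18), calls lost without siNTC-2 replicate 1 or without an array of the depletion. It was not called in siDNMT3A, siD1+3A, 3A+3B or 3A+3L, where the differences were 0.08 to 0.11. Against both controls, whose mean the lower siNTC-1 arrays bring down, each of the 8 depletions on this side was called higher, by 0.31 to 0.58. In all, 18 of the 22 depletion arrays lay above all 4 control arrays for JARID2, which was the case in at least 18 arrays for 3.17% of all genes.

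EZH2, the main PRC2 methyltransferase of dividing cells, was alike in both controls, at 10.40 and 10.44 in siNTC-1 and at 10.50 and 10.45 in siNTC-2. It was lowest in siD1+3A, at 10.21 and 10.17, and in siDNMT3A, at 10.19 and 10.27. The differences from siNTC-2 were -0.29 ± 0.05 (adjusted p = 0.000261) and -0.24 ± 0.05 (adjusted p = 0.00193). EZH2 was called lower in 8 of 11 depletions, with no call higher, and 19 of 22 depletion arrays lay below all 4 control arrays, as in at least 19 arrays for 1.95% of all genes. The 3 arrays that did not were both of siDNMT3B (10.45 and 10.48) and 1 of 3A+3L (10.44 and 10.37). The calls in siD1+3A, siDNMT3A and siD1+3B (-0.22 ± 0.05, adjusted p = 0.00243) held with every array left out. The calls in siDNMT1, siD1+3A+3B, 3A+3B, 3B+3L and 3A+3B+3L, at -0.23 to -0.14, were each lost without at least 1 array: in 3A+3B without its replicate 2, and in the others without a control array or an array of the depletion. The call in 3A+3B+3L was also lost against both controls (-0.11, adjusted p = 0.0572).

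EZH1, the paralogous methyltransferase, is among the members whose result turns on the control. It was at 8.70 and 8.75 in siNTC-1 and at 9.12 and 9.02 in siNTC-2, and it was called lower in 6 depletions, with differences of -0.28 to -0.16. Against both controls 5 of these 6 calls were lost, and the one in siDNMT3L (8.50 and 8.54) was kept at -0.38 (adjusted p = 2.66e-06). As siNTC-2 was higher, the mean of both controls can only enlarge a fall from siNTC-1. The call in siDNMT3L was lost without siNTC-1 replicate 2 or siDNMT3L replicate 1 when siNTC-1 was the control. PHF19, which links PRC2 to histone H3 lysine 36 methylation, was at 7.05 and 7.12 in siDNMT3L, the lowest of all arrays, against 7.40 and 7.28 in siNTC-1, a fall of -0.26 ± 0.06 (adjusted p = 0.00346). SUZ12 and EED, the core scaffold subunits, were called in 1 and in 0 depletions. SUZ12 was at 10.82 and 10.81 in siDNMT3A and at 11.08 and 10.97 in siNTC-2, a difference of -0.22 ± 0.05 (adjusted p = 0.00676), which was lost without siNTC-2 replicate 1.

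**Figure D3:**
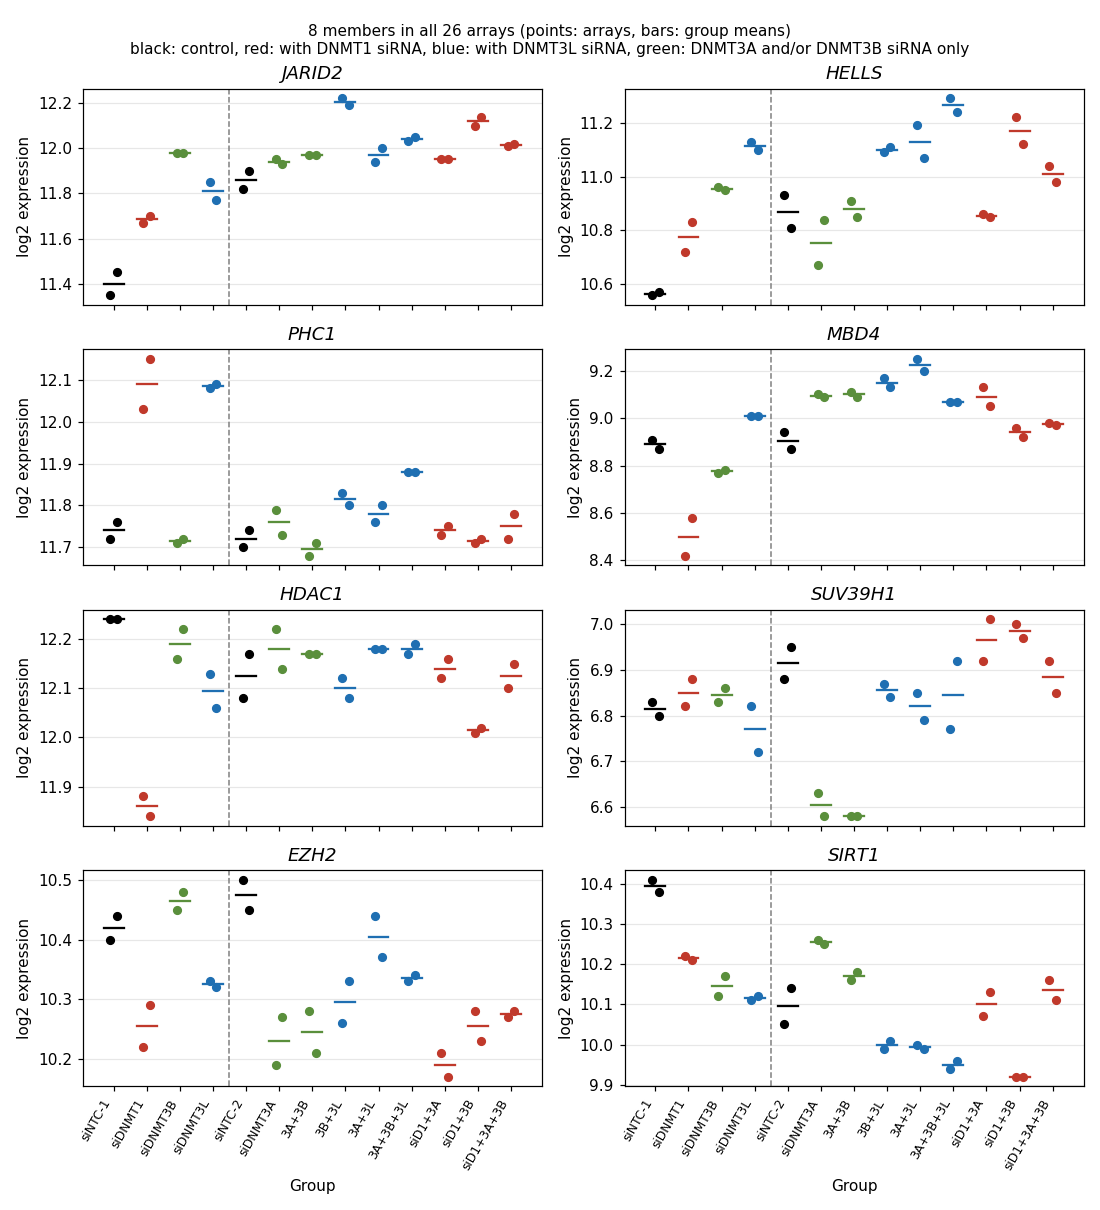
Points are the log2 expression of each array and bars the group means for 8 members, with groups on the horizontal axis and the dashed line parting the groups on the siNTC-1 side from those on the siNTC-2 side; vertical axes do not start at 0 and differ between panels. PHC1 is high in siDNMT1 and siDNMT3L, MBD4 and HDAC1 are low in siDNMT1, SUV39H1 is low in siDNMT3A and 3A+3B, and JARID2 and HELLS are lowest, and SIRT1 highest, in siNTC-1.

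Of the 4 measured PRC1 genes, PHC1 and RING1 were called and CBX2 and CBX7 were not. PHC1, a polyhomeotic subunit that lets PRC1 cluster on chromatin, was at 12.03 and 12.15 in siDNMT1 and at 12.08 and 12.09 in siDNMT3L. In siNTC-1 it was at 11.72 and 11.76, and in siNTC-2 at 11.70 and 11.74, so the controls agreed. The differences were 0.35 ± 0.05 in siDNMT1 (adjusted p = 3.48e-05) and 0.35 ± 0.05 in siDNMT3L (adjusted p = 4.49e-05), and these 4 arrays were the highest of the 26. In siDNMT3B, on the same side of the first component, PHC1 was at 11.71 and 11.72, within the control range. DNMT3L mRNA was called lower in siDNMT1 (75.6% of control) and siDNMT3L (70.6%). It was also called lower in 3A+3L (68.3%) and 3B+3L (75.8%), where PHC1 differed by 0.06 and 0.10 and was not called. In 3A+3B+3L, DNMT3L was called lower too (79.7%), and there PHC1 was called higher, by 0.16. The part of DNMT3L in the rise was not tested. The other row that names PHC1 gave 0.36 in both depletions. PHC1 did not move in this way where DNMT1 siRNA was combined: it was at 11.71 to 11.78 in the 6 arrays of siD1+3B, siD1+3A and siD1+3A+3B. In 3A+3B+3L it was at 11.88 in both arrays, a call of 0.16 (adjusted p = 0.0187) that was lost without siNTC-2 replicate 1 or either array of the depletion. RING1, a ubiquitin ligase for histone H2A, was at 6.98 and 7.04 in siD1+3B against 7.56 and 7.30 in siNTC-2, a difference of -0.42 ± 0.11 (adjusted p = 0.00598). That call was lost without siNTC-2 replicate 1. RING1 lay below all 4 control arrays in 15 of 22 depletion arrays. Of all genes, 8.99% lay below them in at least 14 arrays and 5.53% in at least 16. Against both controls it was called lower in siD1+3B (-0.42, adjusted p = 0.0021), siDNMT1 (-0.31, adjusted p = 0.0159) and siDNMT3B (-0.26, adjusted p = 0.0348). CBX2 and CBX7, which bind methylated H3 lysine 27, were not called in any depletion against the control on the same side.

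Among the H3 lysine 9 methyltransferases, SUV39H1 fell with DNMT3A depletion, and SETDB1 and EHMT2 were not called against the control on the same side. SUV39H1, an enzyme of constitutive heterochromatin, was at 6.63 and 6.58 in siDNMT3A and at 6.58 in both arrays of 3A+3B, the lowest of the 26. It was at 6.88 and 6.95 in siNTC-2 and at 6.83 and 6.80 in siNTC-1. The differences from siNTC-2 were -0.31 ± 0.06 (adjusted p = 0.00111) and -0.33 ± 0.06 (adjusted p = 0.000826). In the other groups with DNMT3A siRNA, which also held DNMT1 or DNMT3L siRNA, SUV39H1 was at 6.77 to 7.01 and was not called. SUV39H2, its paralog, was called higher in 5 depletions against siNTC-2, by 0.23 to 0.30, but all 5 arms lay below the siNTC-1 arrays (9.65 and 9.66). Against the mean of both controls each of these 5 differences turned to the other sign, at -0.092 to -0.021, and none was called. These are the 5 depletions in which 12 stress genes were lower, and the part of those genes in the SUV39H2 differences was not tested. EHMT1, a partner of EHMT2 in H3 lysine 9 dimethylation, was called lower in siDNMT3L (-0.27 ± 0.06, adjusted p = 0.00305, lost without siDNMT3L replicate 2) and siDNMT1 (-0.19), and higher in siDNMT3A (0.20). The calls in siDNMT1 and siDNMT3A were lost against both controls.

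The HP1 genes CBX1, CBX3 and CBX5 followed the control split. CBX3, encoding HP1 gamma, was at 9.07 and 9.11 in siNTC-1 and at 8.52 and 8.61 in siNTC-2, and all 22 depletion arrays lay between the lowest and highest of these. It was called higher in 4 depletions against siNTC-2 (0.19 to 0.24) and lower in siDNMT3L against siNTC-1 (-0.16), and all 5 calls were lost against both controls, each with the sign turned (-0.075 to -0.017 for the 4 and 0.10 in siDNMT3L). CBX5, encoding HP1 alpha, was called lower in siD1+3A+3B (-0.19) and 3A+3L (-0.17), and both calls were lost against both controls with the sign turned. CBX1, encoding HP1 beta, was at 9.33 and 9.24 in siD1+3B, higher than in siNTC-2 (8.98 and 8.96) by 0.31 ± 0.07 (adjusted p = 0.00151), but it did not lie above the siNTC-1 arrays (9.42 and 9.34), and the difference from both controls was 0.11 (adjusted p = 0.165). In 3A+3B it was at 8.64 and 8.79, below all 4 control arrays. That difference was -0.25 ± 0.07 from siNTC-2 (adjusted p = 0.0161) and -0.46 from both controls (adjusted p = 1.23e-05). The first was lost without either siNTC-2 array or without 3A+3B replicate 1. As CBX1 was higher in siNTC-1, the second can only be the larger fall.

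In the deacetylase and NuRD group the calls of HDAC1 in siDNMT1 (lower), of SIRT1 in siDNMT3B and siDNMT3L (lower) and of HDAC2 in siDNMT3B (higher) held with each array left out and against both controls. With only the groups compared in the fit, that of HDAC1 was kept and the others were not. HDAC1, a class I deacetylase shared by several corepressor complexes, was at 11.88 and 11.84 in siDNMT1, the lowest of all arrays. It was at 12.24 in both siNTC-1 arrays and at 12.08 and 12.17 in siNTC-2. The difference was -0.38 ± 0.05 (adjusted p = 1.70e-05), and -0.32 from both controls (adjusted p = 8.50e-06). In the combinations with DNMT1 siRNA, HDAC1 was at 12.01 to 12.16 and was not called against siNTC-2. Against both controls it was called lower in siD1+3B (-0.17, adjusted p = 0.00474). HDAC2, its close paralog, was at 11.87 and 11.86 in siDNMT3B, the highest of all arrays, against 11.66 and 11.67 in siNTC-1, a difference of 0.20 ± 0.05 (adjusted p = 0.00493). HDAC3, the catalytic subunit of the NCoR complex, was called once, in siD1+3A (0.16, adjusted p = 0.0393), a call lost without any 1 of the 4 arrays.

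SIRT1, an NAD-dependent deacetylase, was at 10.41 and 10.38 in siNTC-1, the highest of the 26 arrays, and at 10.05 and 10.14 in siNTC-2. It was at 10.12 and 10.17 in siDNMT3B, at 10.11 and 10.12 in siDNMT3L and at 10.22 and 10.21 in siDNMT1. The differences from siNTC-1 were -0.25 ± 0.04 (adjusted p = 0.000373), -0.28 ± 0.04 (adjusted p = 0.000197) and -0.18 ± 0.04 (adjusted p = 0.00758). Against both controls they were -0.10, -0.13 and -0.03, the last of which was not called (adjusted p = 0.6). On the other side SIRT1 was at 9.92 in both arrays of siD1+3B and at 9.94 and 9.96 in 3A+3B+3L, below all control arrays. The differences from siNTC-2 were -0.18 (adjusted p = 0.00523, lost without siNTC-2 replicate 2) and -0.15 (adjusted p = 0.0166, lost without siNTC-2 replicate 2 or either array of the depletion). SIRT1 was called higher in siDNMT3A (0.16, adjusted p = 0.0171), and the difference there from both controls was 0.01 (adjusted p = 0.836). CHD4, the ATPase of NuRD, was called higher in 6 depletions against siNTC-2 by 0.13 to 0.21, and 0 of these 6 calls held against both controls. KDM1A, an H3 lysine 4 demethylase of corepressor complexes, was called higher in 4 depletions and lower in siDNMT1 (-0.14), and the calls in 3A+3L (0.21) and 3A+3B+3L (0.20) were kept against both controls, at 0.13 and 0.12, though each was lost without at least 1 array. MTA1 and MBD3 were not called against the control on the same side. MBD3 lay above all 4 control arrays in 15 of 22 depletion arrays and below them in 2. Of all genes, 8.39% lay above them in at least 14 arrays and 5.52% in at least 16. MTA2 was called once, in siD1+3A (0.14, lost without any 1 array and against both controls).

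Of the methyl-CpG readers, MBD4 moved in opposite directions between groups. MBD4, a thymine glycosylase with a methyl-CpG-binding domain, was at 8.42 and 8.58 in siDNMT1, the lowest of all arrays. In siNTC-1 it was at 8.91 and 8.87 and in siNTC-2 at 8.94 and 8.87. The difference was -0.39 ± 0.05 (adjusted p = 3.65e-05), and -0.40 from both controls (adjusted p = 2.30e-06). In 3A+3L it was at 9.25 and 9.20, the highest of all arrays, a difference of 0.32 ± 0.05 (adjusted p = 0.000182). MBD4 was called higher in 5 further depletions on the siNTC-2 side, by 0.16 to 0.24, each kept against both controls and each lost without siNTC-2 replicate 2 and also without at least 1 array of its own group. All 3 combinations with DNMT1 siRNA lay at 8.92 to 9.13, and none was called lower. In all, 17 of 22 depletion arrays lay above the 4 control arrays, which spanned only 8.87 to 8.94, and 4 below them. Of all genes, 5.52% lay above the controls in at least 16 arrays and 3.17% in at least 18.

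ZBTB33, known as Kaiso, was called higher in 7 depletions and lower in none against the control on the same side, but the controls themselves differed by -0.35. Against both controls 4 of the 7 calls were lost (siD1+3A at 0.056, siD1+3A+3B at -0.025, 3A+3L at 0.049 and 3A+3B+3L at 0.039). There siDNMT3A (-0.15, adjusted p = 0.00436), 3A+3B (-0.16, adjusted p = 0.00277) and 3B+3L (-0.15, adjusted p = 0.00413) were called lower. The arrays of these groups lay at 10.80 to 10.89, near those of siNTC-2, and none of the groups was called against siNTC-2. No fall is read from them. In siD1+3B it was at 11.15 and 11.11 against 10.82 and 10.81 in siNTC-2, a difference of 0.32 ± 0.04 (adjusted p = 2.22e-05), and 0.14 from both controls (adjusted p = 0.00843). In siNTC-1 it was at 11.18 and 11.15, so the siD1+3B arrays did not lie above that group. In siDNMT1 (11.30 and 11.28) and siDNMT3L (11.28 and 11.31) it lay above all control arrays. The differences from siNTC-1 were 0.13 in both (adjusted p = 0.0444 and 0.038), each lost without any 1 of the 4 arrays. From both controls they were 0.30 (adjusted p = 4.54e-06) and 0.31 (adjusted p = 3.55e-06). As ZBTB33 was lower in siNTC-2, the mean of both controls can only enlarge these rises. MBD2, which bridges methylated CpG to NuRD, was called lower in 4 depletions, with differences of -0.49 to -0.32. Its duplicates were far apart in several groups, for example 7.59 and 7.98 in siDNMT1, and all 4 calls were lost without at least 1 array, that in siD1+3B without its replicate 2. MBD2 lay below all 4 control arrays in 17 of 22 depletion arrays and above them in 1. Of all genes, 5.53% lay below them in at least 16 arrays and 2.77% in at least 18. MBD1 and ZBTB4 were not called against the control on the same side.

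HELLS was the member with the second largest rise. It is a helicase-like remodeler that DNA methylation needs at repeats. It was at 10.56 and 10.57 in siNTC-1, the lowest of all arrays, and at 11.13 and 11.10 in siDNMT3L, 10.96 and 10.95 in siDNMT3B and 10.72 and 10.83 in siDNMT1. The differences were 0.55 ± 0.06 (adjusted p = 7.39e-06), 0.39 ± 0.06 (adjusted p = 0.000169) and 0.21 ± 0.06 (adjusted p = 0.0221). In siNTC-2 HELLS was at 10.93 and 10.81, so that siDNMT3B lay just above it and siDNMT1 did not. Against both controls siDNMT3L was at 0.40 (adjusted p = 1.61e-05), siDNMT3B at 0.23 (adjusted p = 0.00218) and siDNMT1 at 0.06, no longer called (adjusted p = 0.453). On the siNTC-2 side HELLS was at 11.29 and 11.24 in 3A+3B+3L, the highest of all arrays, and at 11.22 and 11.12 in siD1+3B. The differences were 0.39 ± 0.06 (adjusted p = 0.000136) and 0.30 ± 0.06 (adjusted p = 0.00151). It was also called in 3A+3L (0.25) and 3B+3L (0.23), calls kept against both controls but lost without siNTC-2 replicate 2 or an array of the depletion. All 4 groups with DNMT3L siRNA were therefore called higher for HELLS. In siDNMT3A, siD1+3A and 3A+3B it was at 10.67 to 10.91, with no call.

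DAXX was at 7.31 and 7.18 in siD1+3B, and fell by 0.38 ± 0.07 from siNTC-2 (adjusted p = 0.000942). This call was lost against both controls (-0.06, adjusted p = 0.547), since siNTC-1 was lower still. ATRX, its partner in depositing histone H3.3, was called once (siD1+3A+3B, 0.17, adjusted p = 0.0302). The call was lost without any 1 array, and another row that names ATRX gave 0.07. MORC2, an ATPase that works with HUSH, was called once (3A+3B+3L, 0.16, lost without any 1 array), and MPHOSPH8, the HUSH chromodomain subunit, was not called.

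Effects of one siRNA on top of others need no control group. Adding DNMT1 siRNA is the mean of siD1+3A minus siDNMT3A and siD1+3A+3B minus 3A+3B. With it, 7 members were called (5 higher, 2 lower), beside 13.6% of all genes (5.55% higher, 8.01% lower). SUV39H1 rose by 0.33 ± 0.04 (adjusted p = 2.93e-05), from 6.63, 6.58, 6.58 and 6.58 to 6.92, 7.01, 6.92 and 6.85. The arrays with and without DNMT1 siRNA did not overlap. ZBTB33 rose by 0.17 ± 0.03 (adjusted p = 0.000863) and CBX1 by 0.20 ± 0.05 (adjusted p = 0.00645), and with SUV39H1 these were the calls that held with each of the 8 arrays left out. For CBX1 the arrays of the 2 sets overlapped (8.77 to 9.06 with and 8.64 to 8.82 without DNMT1 siRNA). The calls of SUZ12 (0.12), SUV39H2 (0.16), PHF19 (-0.13) and SIRT1 (-0.10) were lost without at least 7 of the 8 arrays. Adding DNMT1 siRNA also went with a lower stress list (12 of 15 lower, median -0.66) and a shift along the first component, from 14.6 to 16.5 down to 6.8 to 9.5. Whether these have a part in the members' changes was not tested.

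Adding DNMT3L siRNA is the mean of 3A+3L minus siDNMT3A and 3A+3B+3L minus 3A+3B. It gave 13 called members (9 higher, 4 lower), beside 17.7% of all genes (7.18% higher, 10.5% lower). HELLS rose by 0.38 ± 0.04 (adjusted p = 8.39e-06), by 0.37 on DNMT3A siRNA and by 0.38 on DNMT3A and DNMT3B siRNA. CBX1 rose by 0.35 ± 0.05 (adjusted p = 3.38e-05), SUV39H1 by 0.24 ± 0.04 (adjusted p = 0.00038) and ZBTB33 by 0.20 ± 0.03 (adjusted p = 0.000107). SIRT1 fell by 0.24 ± 0.03 (adjusted p = 2.11e-05), from 10.16 to 10.26 over the 4 arrays without DNMT3L siRNA to 9.94 to 10.00 over the 4 with it, with no overlap. These calls, SUZ12 (0.15) and EZH1 (-0.15) held with each of the 8 arrays left out. EZH2 (0.13), PHC1 (0.10), SUV39H2 (0.16), DAXX (0.19), PHF19 (-0.14) and ATRX (-0.13) were each lost without at least 3 of the 8 arrays. The stress list fell here as well (12 of 15 lower, 2 higher, median -0.87), and the part of that shift was not tested. The additions of DNMT1 and DNMT3L siRNA share the siDNMT3A and 3A+3B arrays, so a change seen in both can come from those arrays alone.

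**Figure D4:**
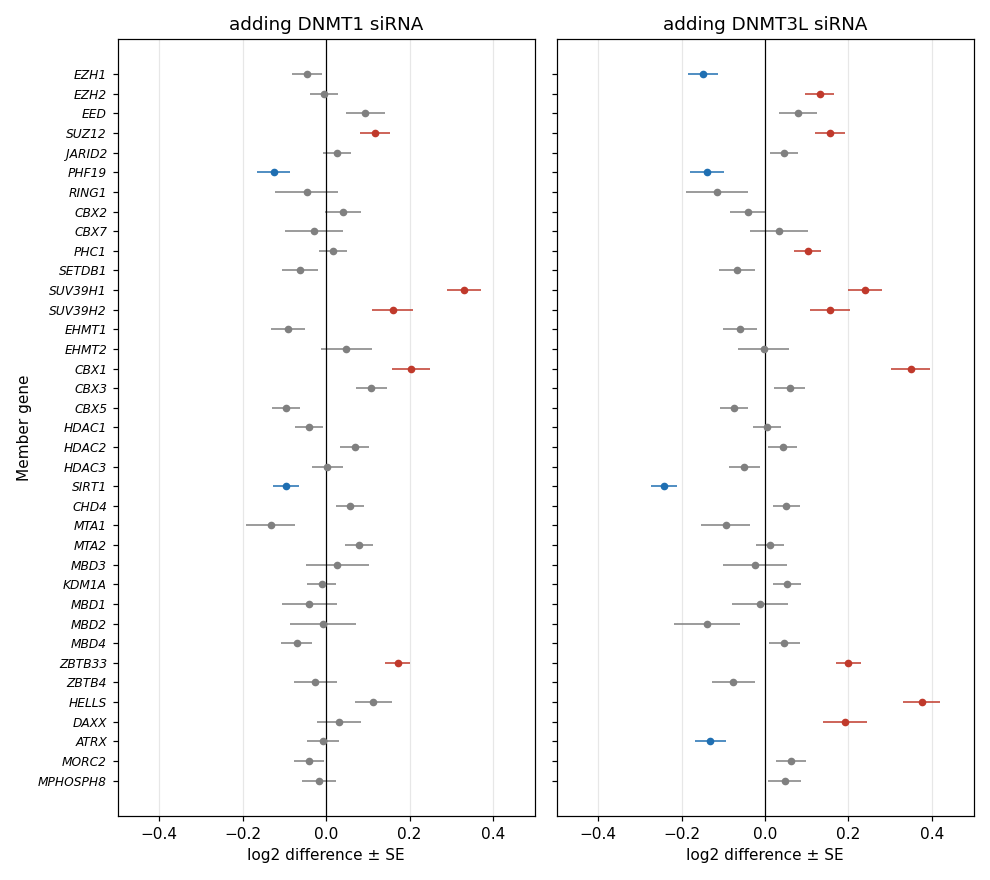
Points are log2 differences with their SE for each member (vertical axis) when DNMT1 siRNA (left) or DNMT3L siRNA (right) is added to DNMT3A or DNMT3A and DNMT3B siRNA, red where called higher, blue where called lower and grey where not called. HELLS is at 0.38 on the right and not called on the left, and SUV39H1 is at 0.33 on the left and 0.24 on the right.

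The combinations that differ only in holding DNMT1 or DNMT3L siRNA can be compared directly, a comparison added after the values were seen. DNMT1 siRNA in place of DNMT3L siRNA gave 3 called members, beside 3.11% of all genes. HELLS differed by -0.26 ± 0.04 (adjusted p = 0.00216), at 10.85 to 11.04 against 11.07 to 11.29. That call held with each array left out, and the calls of SIRT1 (0.15, adjusted p = 0.0132) and EZH2 (-0.14, adjusted p = 0.035) did not. SUV39H1 and CBX1 were not called between these sets.

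Adding DNMT3B siRNA, the mean over 3 backgrounds, gave 0 called members by limma, beside 0.755% of all genes, and 5 members at an unadjusted p under 0.05. The count was 1 without the dimmest 40% of genes and 1 with a trended variance prior. DNMT3B itself was at 73.5 to 99.4% of siNTC-2 in the groups that received the addition. In the groups they were set against, siDNMT3A, siD1+3A and 3A+3L, it was at 109, 115 and 121% of siNTC-2. Adding DNMT3A siRNA gave 2 called members, beside 10.1% of all genes. JARID2 fell by 0.14 ± 0.03 (adjusted p = 0.0127), at 12.10 to 12.22 without and 12.01 to 12.05 with DNMT3A siRNA, and DAXX was higher by 0.22 ± 0.05 (adjusted p = 0.0119). Both were lost without some of the 8 arrays. Whether the effect of DNMT1 or of DNMT3L siRNA differed with and without DNMT3B siRNA was tested as an interaction, and 0 members were called by limma in either, beside 0.0760 and 0.0326% of all genes. At an unadjusted p under 0.05 there were 4 and 2 members, and no alternative setting gave a call.

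The single depletions that share siNTC-1 were also compared with each other. Between siDNMT1 and siDNMT3B, 11 members were called (2 higher and 9 lower in siDNMT1), beside 18.3% of all genes (8.49% higher, 9.79% lower). PHC1 was higher in siDNMT1 by 0.38 ± 0.05 (adjusted p = 2.39e-05), while HDAC1 (-0.33), JARID2 (-0.29), MBD4 (-0.27) and HDAC2 (-0.20) were lower, and these 5 held with each array left out. Between siDNMT1 and siDNMT3L, 4 members were called (1 higher, 3 lower), beside 12.6% (6.23% higher, 6.33% lower). MBD4 differed most, by -0.51 ± 0.05 (adjusted p = 5.21e-06), followed by HELLS (-0.34), HDAC1 (-0.24) and EZH1 (0.25), all of which held. The PHC1 levels of siDNMT1 and siDNMT3L were not called different. Between siDNMT3B and siDNMT3L, 5 members were called (3 higher, 2 lower), beside 10.8% (5.88% higher, 4.95% lower). PHF19 was higher in siDNMT3B by 0.36 ± 0.06 (adjusted p = 0.000343), and PHC1 (-0.38 ± 0.05, adjusted p = 4.97e-05) and MBD4 (-0.24 ± 0.05, adjusted p = 0.00524) were lower. JARID2 (0.17) and EHMT1 (0.28) were called as well and were lost without at least 1 array, siDNMT3L replicate 2 in both cases.

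Other genes of the same systems were counted from lists chosen with earlier results of these data known. Of 58 measured companion silencers (further subunits and relatives of the members), 9 to 25 were called in a depletion (15.5 to 43.1%, beside 10.1 to 25.0% of all genes), with list medians of -0.081 to -0.008. The 4 genes that follow were singled out after their values were seen, for calls in most depletions. How many of all genes were called in as many depletions was not counted, and 8 of the 11 comparisons share the siNTC-2 arrays. Results with arrays left out or against both controls are not given for these 4. HDAC9, a class IIa deacetylase, was called lower in 10 of 11, with differences of -0.55 to -0.35, and was not called between the controls. HDAC7, of the same class, was called higher in 8 of 11, by 0.18 to 0.60, with the largest rises in siDNMT3B (0.60), siDNMT1 (0.50) and siDNMT3L (0.48), and it too was not called between the controls. CHAF1B, a subunit of the replication-coupled chromatin assembly factor, was called lower in all 11, with differences of -0.53 (siDNMT1) to -0.19. In siDNMT1, siDNMT3B and siDNMT3L, where CHAF1B fell by 0.53, 0.41 and 0.38, 16, 8 and 9 of the 20 replication genes were also lower, and the part of that list was not tested. KMT5A, an H4 lysine 20 methyltransferase, was called lower in 10 of 11, with differences of -0.90 to -0.28. It was at -0.60 in siDNMT1 and -0.85 in siD1+3B, and differed by 0.63 between the controls.

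Of 30 measured genes with opposing activities (demethylases, acetyltransferases and activating methyltransferases), 3 to 14 were called in a depletion (10.0 to 46.7%, beside 10.1 to 25.0% of all genes). KAT2B, an acetyltransferase, was called lower in 7 of the 8 depletions set against siNTC-2, with differences of -0.74 to -0.30, and on the other side lower in siDNMT3L (-0.26) and higher in siDNMT3B (0.27). In the same 7, KDM3A, an H3 lysine 9 demethylase, was called higher, by 0.20 to 0.63. Between the controls KAT2B differed by 0.71 and KDM3A by -0.78, in the opposite directions. How many of all genes were called as often as these was not counted. Of 40 measured developmental genes known as Polycomb targets, 0 to 4 were called in a depletion, with list medians of -0.04 to 0.04. This is 0 to 10.0% of the list, below the share of all genes in each depletion. The shares were not matched for level, and the part of level in the lower share was not tested. Some of the list were dim, with medians over the arrays of 4.79 for SOX17, 5.03 for FOXA2 and 5.08 for SOX1. Others were brighter, as NKX6-1 at 7.13 to 7.78. Called were TBX5 in siDNMT3B (0.74), GATA6 in siD1+3B (0.41) and siDNMT3L (0.34), and LHX2 in siDNMT1 (0.39), which differed by 0.61 between the controls. NKX6-1 was called higher in siDNMT3B (0.48) and siDNMT3L (0.22) and lower in 3A+3L (-0.27) and siD1+3A (-0.25). Levels were 4.99 to 5.63 for GATA6 and 5.57 to 6.44 for TBX5, near the levels of the markers of other lineages. PAX6 had calls in 6 depletions, but it lay at or below 4.51 in all arrays, among the dimmest genes, and no change is read from it.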

How the data were processed

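The data are the deposited log2 expression values of 26 arrays, 1 column per array in 1 table of 33297 rows. Values run from 3.04 to 14.87, from which a log base of 2 was inferred. Per the labels' protocols each array took 250 ng of total RNA. The submitters' processing notes name Partek, with neither its role nor its version. How background was corrected, probes summarised and arrays normalized is not given in the sources used here. Array medians lie between 6.28 and 6.33, so an overall shift in RNA content would not be visible. On arrays, differences of weak genes are commonly understated. The values carry no counts, and the number of arrays limits the precision.

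Rows naming exactly 1 gene (19460) were kept, while 1754 name several and 12083 none. Where several rows named a gene (769 genes), the row of highest mean stood for it. This gave 18417 genes, with no filter on level. Groups came from the sample titles. A model of 13 group means was fitted with limma 3.58.1 (R 4.3.3, lmFit and eBayes, 13 residual degrees of freedom), with two-sided moderated tests, Benjamini-Hochberg adjustment over 18417 genes and a threshold of 0.05. The procedure was tested on simulated data. Duplicate arrays correlated at r = 0.9973 to 0.9989. Equal replicate numbers were not taken as pairs, since deviations from the group means showed no common correlation by number (median r = -0.00188, range -0.258 to 0.191). Members were named with statistics when among the 5 largest called rises or falls of a comparison whose arrays did not overlap, and for an addition when the sign was the same in every background. The others are given by level, count or range. Alternatives were the mean of both controls, each array left out, only the groups compared, the 40% dimmest genes left out, quantile normalization, another variance prior, a replicate block and the mean of all rows of a gene. The members and gene lists were chosen with earlier results of these data known, and the comparisons of DNMT1 with DNMT3L siRNA in combinations and of an siRNA alone against added were chosen after seeing the data. The comparison with the range of all control arrays was also chosen after seeing the data.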

Additional observations from a re-analysis of the deposited data

Results flagged for a closer look

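In 3 cases an siRNA changed a member differently when transfected alone (against siNTC-1) than when added to other siRNAs. Each value here is the log2 difference alone minus the mean difference when added, tested in the limma fit with adjustment over all genes. For DNMT1 siRNA, 6 members were called, beside 15.7% of all genes: PHC1 at 0.34, JARID2 at 0.26, HDAC1 at -0.34, MBD4 at -0.32, SUV39H1 at -0.29 and SUV39H2 at -0.28. The call of SUV39H2 was lost without 8 of the 12 arrays in turn, among them both siNTC-1 arrays, and the other 5 held without each. PHC1, HDAC1 and MBD4 were called in siDNMT1 and not when DNMT1 siRNA was added, and for SUV39H1 the change was seen when it was added. For DNMT3L siRNA, 7 members were called, beside 13.4% of all genes: JARID2 at 0.36, ATRX at 0.26, PHC1 at 0.25, CBX1 at -0.44, SUV39H1 at -0.29, EZH2 at -0.23 and CBX3 at -0.22. Of these, JARID2, PHC1 and CBX1 held without each array, and the other 4 were lost without siDNMT3L replicate 2, 3 of them also without a siNTC-1 array. For DNMT3B siRNA, 4 members were called, beside 17.4% of all genes: JARID2 at 0.52, HELLS at 0.25, HDAC2 at 0.24 and SIRT1 at -0.22. HELLS was lost without either siNTC-1 array or either siDNMT3B array. ATRX was lost with the mean of its 2 rows, and the other row gave -0.18.

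With the mean of both controls for the single depletion, an alternative chosen after seeing the data, 11 of these 17 calls were kept. JARID2 was no longer called for DNMT1 siRNA (0.029, adjusted p = 0.77) or for DNMT3L siRNA (0.13, adjusted p = 0.104), and SUV39H2 for DNMT1 siRNA (0.044) and CBX3 for DNMT3L siRNA (0.041) turned sign. For DNMT3B siRNA, SIRT1 (-0.069) and HELLS (0.095) were no longer called, and JARID2 was kept at 0.29 and CBX1 for DNMT3L siRNA at -0.24. PHC1, HDAC1, MBD4 and SUV39H1 for DNMT1 siRNA were kept at 0.35, -0.28, -0.32 and -0.34.

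The single depletions of DNMT1, DNMT3B and DNMT3L lie on the siNTC-1 side of the first component and the additions on the other side, so that difference and the presence of other siRNAs cannot be told apart. Depletion also differed. DNMT1 was at 37.4% of control alone and at 55.9 and 59.5% in siD1+3A and siD1+3A+3B. DNMT3B was at 50.3% alone and at 73.5, 87.1 and 99.4% in 3A+3B, siD1+3A+3B and 3A+3B+3L. In the groups without the addition DNMT1 was at 106% of siNTC-2 (siDNMT3A and 3A+3B). There DNMT3B was at 109, 115 and 121% (siDNMT3A, siD1+3A and 3A+3L). The replication and stress lists differed in the same comparisons: 13 of 20 replication genes were lower for DNMT1 and for DNMT3L siRNA and 8 for DNMT3B siRNA, and 6, 12 and 2 of 15 stress genes were higher. The part of depletion depth and of these lists was not tested.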

How the results depend on the processing

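The choice of control and the estimate of the spread moved the counts most. Against the mean of both controls more members were called in siDNMT1 (18), siDNMT3B (18), siDNMT3L (16), siDNMT3A (16), 3A+3B (14) and 3B+3L (17). Of the 98 calls, 53 were kept there and 45 lost, and 0 were called in the other direction. Of the called differences, 18 turned sign: SUV39H2 in siD1+3A (-0.021), siD1+3B (-0.033), siD1+3A+3B (-0.092), 3A+3L (-0.083) and 3A+3B+3L (-0.038), CBX3 in siDNMT3L (0.099), siD1+3A (-0.032), siD1+3B (-0.017), siD1+3A+3B (-0.075) and 3A+3L (-0.069), EZH1 in siD1+3B (0.007), siD1+3A (0.004) and siD1+3A+3B (0.011), CBX5 in siD1+3A+3B (0.029) and 3A+3L (0.052), DAXX (0.059) and ZBTB33 (-0.025) in siD1+3A+3B, and MTA2 in siD1+3A (-0.001). For an siRNA alone against added, SUV39H2 (DNMT1 siRNA, 0.044) and CBX3 (DNMT3L siRNA, 0.041) turned sign, and 12 members were called for DNMT3B siRNA. With only the groups compared in the fit, where 2 arrays a side leave a depletion 2 residual degrees of freedom, 28 of the 98 calls were kept, and counts fell to 1 in siDNMT1, 2 in siDNMT3B, 1 in siDNMT3L, 1 in siDNMT3A, 4 in siD1+3A, 1 in siD1+3A+3B, 1 in 3A+3B, 2 in 3A+3L, 2 in 3B+3L, 5 in 3A+3B+3L, 0 in each comparison of single depletions, 1 in adding DNMT3A siRNA, 1 in DNMT1 in place of DNMT3L siRNA and 3 in DNMT3L siRNA alone against added. Without the 40% dimmest genes, counts rose to 9 for adding DNMT3A siRNA, 1 for adding DNMT3B siRNA, 7 for siDNMT1 against siDNMT3L, 5 for DNMT1 in place of DNMT3L siRNA and 11 for DNMT1 siRNA alone against added, and with a trended, robust variance prior they were 7, 1, 7, 5 and 10. Quantile normalization gave 7 for adding DNMT3A siRNA. With 1 array left out the counts were 15 to 17 between the controls, 6 to 7 in siDNMT1, 4 to 6 in siDNMT3B, 6 to 7 in siDNMT3L, 3 to 5 in siDNMT3A, 4 to 6 in siD1+3A, 10 to 11 in siD1+3B, 1 to 6 in siD1+3A+3B, 2 to 3 in 3A+3B, 5 to 6 in 3A+3L, 1 to 3 in 3B+3L and 5 to 7 in 3A+3B+3L. They were 3 to 5 for adding DNMT1, 0 to 2 for adding DNMT3A, 0 to 0 for adding DNMT3B and 8 to 11 for adding DNMT3L siRNA, 7 to 10 for siDNMT1 against siDNMT3B, 4 to 5 for siDNMT1 against siDNMT3L, 3 to 5 for siDNMT3B against siDNMT3L, 1 to 3 for DNMT1 in place of DNMT3L siRNA, 5 to 8, 4 to 8 and 3 to 4 for DNMT1, DNMT3L and DNMT3B siRNA alone against added, and 0 to 0 for both interactions. A group left with 1 array was assumed to vary like the others. With a replicate block the counts were 17 between the controls, 11 in siDNMT1 and 9 in siDNMT3L, and of the named calls only SIRT1 with added DNMT1 siRNA was lost (-0.096, adjusted p = 0.0536). Correlations of deviations across 78 pairs of groups were -0.258 to 0.191, with a median of -0.00188, and 9 pairs were over 0.1. With a median near 0, equal numbers were not taken as pairs. The mean of all rows of a gene ended 3 of the 146 named calls.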
